A study of Mus musculus with 20 samples.

Results

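The interferon response was followed through 48 genes, a fixed list of symbols to which no threshold on these data was applied, although it was drawn up with earlier results of these data known. They comprise 7 sensors and adaptors of viral nucleic acid, 5 transcription factors, 7 effectors that bind or act on double-stranded RNA, 24 other antiviral effectors and 5 genes of antigen presentation. All 48 had a row among the 22729 genes of the embryo count table, 38 among 20159 genes in mouse embryonic stem cells (mESCs) and 41 among 20142 genes in embryoid bodies (EBs), and 36 had a row in all 3 tables. Ifih1, Irf7, Usp18, Ifit1, Mx1, Mx2, Rtp4, Ifi27, Ifi44 and Trim30a had no row in mESCs, and Zbp1, Ifit1, Mx1, Mx2, Xaf1, Ifi27 and Ifi44 had none in EBs. Tmem173, which encodes STING, is listed in the line tables under its newer symbol and was matched by its gene identifier.

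RNA from viruses, or from transposons whose transcripts can pair into double strands, is recognised in the cytoplasm by RIG-I (Ddx58) and MDA5 (Ifih1), which signal through the mitochondrial adaptor MAVS, while STING relays the detection of cytoplasmic DNA. These pathways activate IRF3 and IRF7 and induce type I interferon, and the secreted interferon acts through the IFNAR receptor and factors that include STAT2 and IRF9 on genes whose promoters carry the interferon-stimulated response element. Pluripotent cells are known to make and to answer interferon only weakly.

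The study asked what is derepressed when ZMYM2, a zinc finger protein of chromatin repressor complexes, is lost, and young LINE-1 elements of the L1MdT subfamily are among its targets; the comparison made here was whether the interferon response genes differ between Zmym2-/- samples and controls in the same libraries. RNA was sequenced from 12 single whole embryos of strain C57BL/6 taken at E8.5, of which 6 were Zmym2+/+ and 6 Zmym2-/-, each genotype having 3 males and 3 females, the mutant allele being an early truncating mutation carried in every cell with no Cre or transgene. It was also sequenced from V6.5 mESC lines (strain C57BL/6x129/SvJae) in serum and LIF, 2 that had received a non-target guide and 2 Zmym2-/-, and from EBs grown from such lines for 3 days, again 2 per genotype. Each library of the lines is thus 1 clone, and their p-values measure the spread between these few clones. Nothing in the labels says which of 2 RNA kits served which embryo.

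The 20 libraries held 32016880 to 64057608 counts, so that 1 CPM (counts scaled to equal library sizes, here scaled by TMM factors) was at least 32.0 counts. Zmym2 itself was at 50.3 to 125 CPM in Zmym2+/+ and at 25.4 to 67.1 CPM in Zmym2-/- embryos, with overlap (log2 fold change -0.91 ± 0.25 (SE), adjusted p = 0.226, edgeR), and a truncating allele need not lower the RNA; its log2 fold change was -1.30 ± 0.10 in mESCs and -1.55 ± 0.07 in EBs (adjusted p = 3.07e-06 and 9.7e-08, edgeR). Of 46 genes that the study lists as fused to an L1MdT element, chosen by it on these embryos and so no independent evidence, 30 were higher and 0 lower in Zmym2-/- embryos, 21 of 32 tested were higher in mESCs and 15 of 36 in EBs, with 0 lower in each. Morc1, for example, had 0.109 to 0.497 CPM in Zmym2+/+ and 2.05 to 4.18 CPM in Zmym2-/- embryos. Genes typical of E8.5 embryos summed to 213.2 to 452.5 CPM in Zmym2+/+ and to 147.6 to 407.8 CPM in Zmym2-/- embryos. The pluripotency genes Pou5f1 and Zfp42 had means of 1610 and 362 CPM in control mESCs, and of 1488 and 26.8 CPM in control EBs. Genes of motile cilia summed to 18.1 to 28.5 CPM in 10 embryos, to 49.1 CPM in Zmym2-/- embryo 5 and to 153 CPM in Zmym2-/- embryo 6, and results are also given without those 2 embryos.

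To show what the members share, promoters from 250 bases before to 50 bases after the start site were taken from RefSeq (GRCm38.p6) for the 36 members that had an entry there. The letters GAAANNGAAA, the core of the interferon-stimulated response element, were searched on both strands, and overlapping matches were counted. They were in the promoters of 16 of these 36 members (44.4%) and of 3.99% of all 27025 genes with an entry. The 16 were B2m, Bst2, Ddx58, Eif2ak2, Gbp2, Gbp3, Ifih1, Ifit1, Ifit3, Ifitm3, Isg15, Oas1a, Oas3, Rsad2, Stat2 and Trim30a. Of these, 6 are printed because they stand for the patterns reported: Isg15, Ifit1 and Gbp3 were lower in embryos of the J name series, Oas1a and Bst2 rose in Zmym2-/- mESCs, and B2m fell in Zmym2-/- EBs. Each line is a run upstream of the start site in the direction of the gene, 5′ to 3′, with the matches in capitals.
Isg15 (chr4:156200871-156200900, minus strand): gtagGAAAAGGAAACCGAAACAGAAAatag
Ifit1 (chr19:34640785-34640814, plus strand): TTTCACTTTCcagtctcagTTTCAGTTTCt
Oas1a (chr5:120907526-120907555, minus strand): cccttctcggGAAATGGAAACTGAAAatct
Bst2 (chr8:71537580-71537609, minus strand): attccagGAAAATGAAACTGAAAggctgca
Gbp3 (chr3:142559992-142560021, plus strand): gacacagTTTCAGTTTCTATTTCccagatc
B2m (chr2:122147538-122147567, plus strand): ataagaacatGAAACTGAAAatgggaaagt
Capitals read TTTC where the match lies on the opposite strand. Isg15 carries 3 overlapping matches between 82 and 53 bases before its start, and B2m a single match. A match is a description of these letters and was not tested as a site.

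Levels of different genes were compared as RPKM (reads scaled by library size and by gene length, computed by the authors). In Zmym2+/+ embryos, the highest medians were 25.7 RPKM for B2m, the light chain of MHC class I, 23.2 for Ifitm3, which blocks viral entry, 15.6 for Bst2, which tethers virions, 12.5 for Samhd1, a dNTP hydrolase, and 12.1 for Irf3. Control mESCs were led by Ifitm3 with 231 RPKM and Bst2 with 111, and control EBs by Bst2 with 115 and Ifitm3 with 56.4. Isg15, a ubiquitin-like modifier, had a median of 3.03 RPKM in Zmym2+/+ embryos, 0.0905 in control mESCs and 0.718 in control EBs, and Ifit1, which binds foreign RNA caps, had 0.241 RPKM in Zmym2+/+ embryos and was listed at 0 in control mESCs. Members without a row of counts in mESCs had at most 0.03 RPKM in any mESC library of either genotype. Those without one in EBs had at most 0.032 RPKM in any EB library.

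Zmym2-/- embryos showed no member as higher or lower. Of 48 members, 0 were called at an adjusted p under 0.05 (edgeR quasi-likelihood test), against 0.51% of all genes called higher and 0.0132% lower. At an unadjusted p under 0.05, 0 members were higher and 1 was lower, against 5.67% and 6.38% of all genes, and DESeq2 also called 0 members, against 1.64% of all genes. The median log2 fold change of the members was 0.02, that of all genes 0.02, and 24 of 48 were positive. For 0 members did the 6 Zmym2-/- embryos lie entirely above or below the 6 Zmym2+/+ embryos, which was the case for 1.18% of all genes. The error of these differences was wide, with standard errors from 0.15 to 1.19 and above 0.8 for 17 members, so that changes of several-fold in those could have been missed.

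Among the sensors and adaptors, 6 of 7 log2 fold changes were positive and none passed. Ddx58 had 4.34 to 7.59 CPM (median 6.57) in Zmym2+/+ and 5.20 to 15.2 CPM (median 7.79) in Zmym2-/- embryos, a log2 fold change of 0.60 ± 0.30 (adjusted p = 0.438, edgeR). Zmym2-/- embryos 4, 5 and 6, all females, lay above every Zmym2+/+ embryo with 9.34, 13.8 and 15.2 CPM, while embryos 1, 2 and 3, all males of 1 litter, lay within the Zmym2+/+ range. Embryos 4, 5 and 6 also differed in markers of cell type. Their E8.5 embryo markers summed to 147.6, 185.5 and 179.9 CPM, against 213.2 to 452.5 CPM in Zmym2+/+ embryos. Their visceral endoderm markers summed to 2747, 3934 and 4782 CPM, against 1029 to 2567 CPM. The part of this in Ddx58 was not tested. Tmem173 was the member with the smallest p: it had 3.00 to 5.58 CPM in the Zmym2+/+ and 0.951 to 4.47 CPM in the Zmym2-/- group (-0.68 ± 0.30 on the log2 scale, adjusted p = 0.398, edgeR). Its lowest value was that of Zmym2-/- embryo 6. Mavs (12.4 to 19.7 against 13.9 to 22.7 CPM), Ifih1 (0.864 to 2.50 against 0.700 to 3.32 CPM) and Trim25, the ubiquitin ligase that activates RIG-I (26.5 to 88.9 against 42.5 to 107 CPM), overlapped throughout.

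The transcription factors gave 2 positive and 3 negative values. Irf3 had 20.9 to 32.2 CPM in Zmym2+/+ and 17.6 to 33.2 CPM in Zmym2-/- embryos, and Irf9 7.69 to 12.4 against 5.84 to 13.2 CPM. Stat2 had a log2 fold change of 0.31 ± 0.17 (adjusted p = 0.497, edgeR). Irf7, which is itself induced by interferon, spread far more widely, over 0.403 to 7.21 CPM in Zmym2+/+ and over 0.186 to 9.02 CPM in Zmym2-/- embryos.

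Effectors spread in the same manner. Isg15 was at 2.28, 4.29, 1.71, 5.32, 2.40 and 0.542 CPM in Zmym2+/+ embryos 1 to 6 and at 0.115, 0.190, 0.223, 6.26, 7.61 and 0.136 CPM in Zmym2-/- embryos 1 to 6. Its highest and its lowest value thus both belonged to the mutant group (-0.19 ± 1.01 on the log2 scale, adjusted p = 0.958, edgeR). Oasl2, of the 2′-5′ oligoadenylate synthetase family, ranged from 0.341 to 5.60 and from 0.315 to 6.65 CPM, Ifit1 from 0.0310 to 2.80 and from 0.0287 to 2.91 CPM, and Ifit3 from 0.326 to 2.16 and from 0.151 to 2.57 CPM, in Zmym2+/+ and Zmym2-/- embryos respectively. Mx1, which traps viral nucleocapsids, had at most 0.318 CPM in any embryo. Adar and Eif2ak2 spread less: Adar, which edits double-stranded RNA, had 13.9 to 39.9 against 24.1 to 42.6 CPM, and Eif2ak2, the kinase PKR, 9.04 to 10.7 against 8.52 to 14.2 CPM. In antigen presentation, Psmb8, a subunit of the immunoproteasome, had 0.124 to 5.43 against 0.10 to 9.42 CPM and B2m 16.8 to 36.5 against 12.5 to 32.6 CPM.

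**Figure D1:**
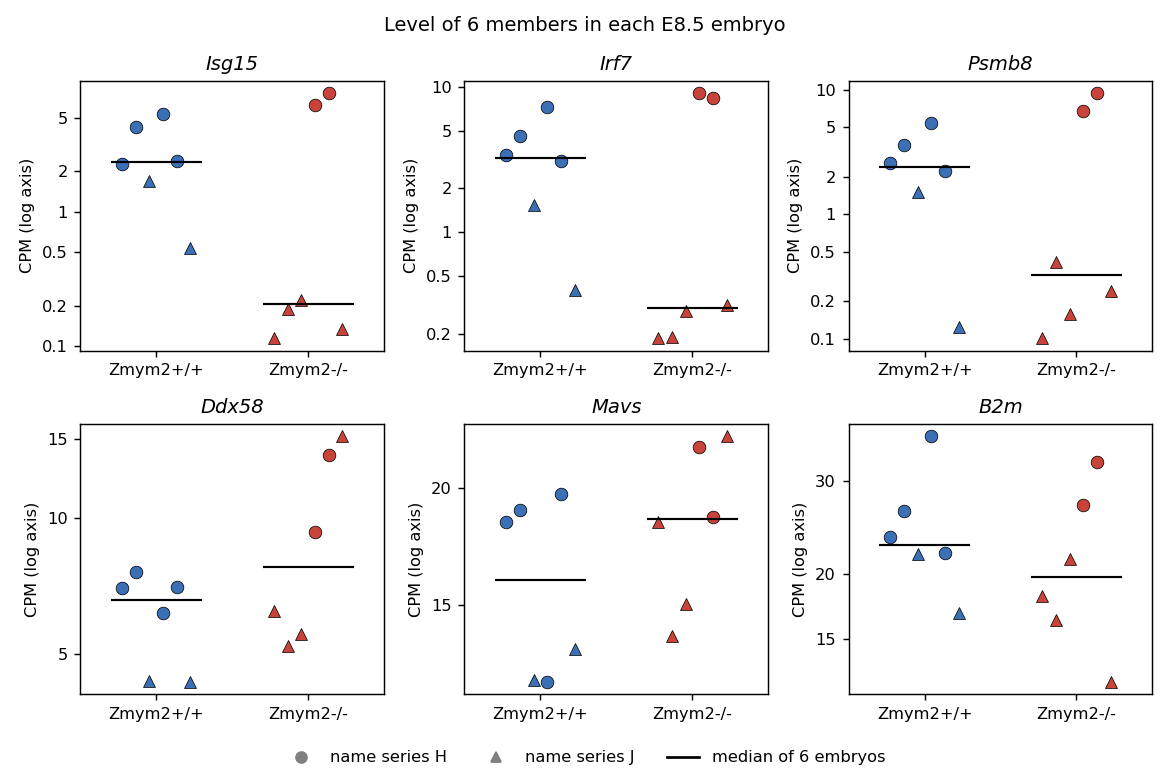
Level of 6 members in CPM (log axes) in each E8.5 embryo by genotype; circles are embryos with a name in the H series, triangles in the J series, and lines are medians of 6 embryos. Isg15, Irf7 and Psmb8 were high in all 6 H embryos of both genotypes and lower in every J embryo, whereas Ddx58 and Mavs overlapped between the series.

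The spread followed the embryo's name. The labels give each embryo a name that begins with H (4 Zmym2+/+ and 2 Zmym2-/-) or J (2 Zmym2+/+ and 4 Zmym2-/-), without saying what the letter means. This term was tested after its pattern was seen, with genotype in the same fit: 24 of 48 members were lower in J embryos, against 4.67% of all genes, and 0 were higher, against 1.36% of all genes (edgeR). For 14 members every H embryo lay above every J embryo, and these were Zbp1, Irf7, Oasl2, Isg15, Ifit3, Rtp4, Xaf1, Ifi27, Ifi44, Parp14, Gbp3, Psmb8, Psmb9 and B2m. The same held for 2.52% of all genes.

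Isg15 had 2.28 to 7.61 CPM (median 4.81) in the 6 H embryos and 0.115 to 1.71 CPM (median 0.206) in the 6 J embryos, a log2 difference of -3.45 ± 0.65 (adjusted p = 0.0107, edgeR). Irf7 had 3.10 to 9.02 against 0.186 to 1.55 CPM (-3.66 ± 0.56, adjusted p = 0.00576, edgeR), and Oasl2 2.30 to 6.65 against 0.315 to 1.22 CPM (-3.04 ± 0.41, adjusted p = 0.00481, edgeR). In all 3 genes the highest J embryo was Zmym2+/+ embryo 3. By role, 14 of 24 antiviral effectors, 4 of 7 effectors on double-stranded RNA, 3 of 5 genes of antigen presentation, 2 of 7 sensors and adaptors (Zbp1, which senses Z-form nucleic acid, and Ifih1) and 1 of 5 transcription factors (Irf7) were lower in J embryos. Ddx58 (-0.60 ± 0.28, adjusted p = 0.228), Mavs (-0.32 ± 0.18, adjusted p = 0.314), Irf3 (-0.28 ± 0.17, adjusted p = 0.37) and Stat2 (-0.23 ± 0.18, adjusted p = 0.477, edgeR) were not called.

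**Figure D2:**
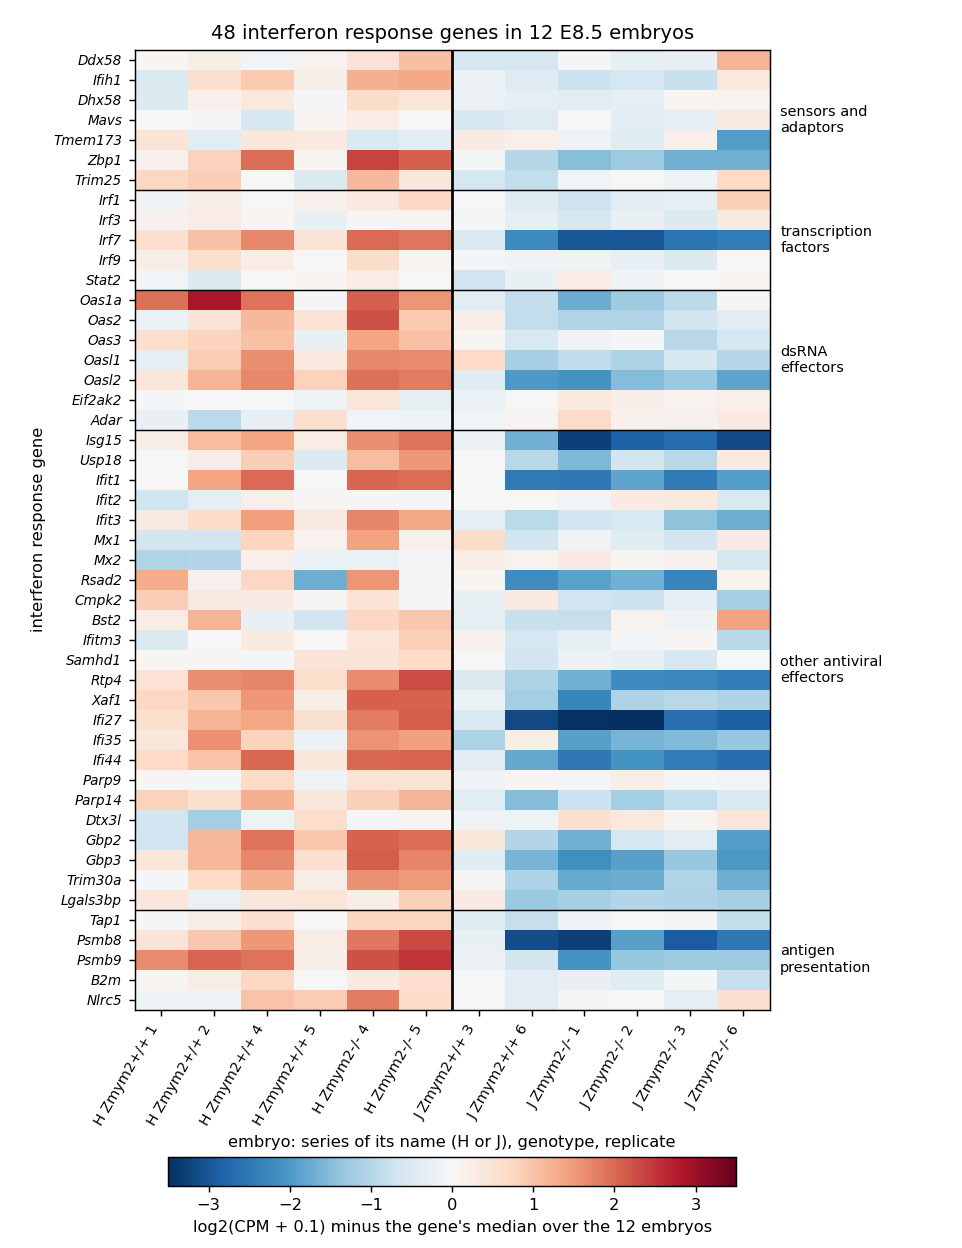
All 48 members (rows, by role) in the 12 embryos (columns, by name series, genotype and replicate); colour is log2(CPM + 0.1) minus the gene's median over the 12 embryos, red above and blue below. The 4 Zmym2+/+ and 2 Zmym2-/- embryos of the H series had 30 to 44 members above the median, and the 6 J embryos 5 to 18.

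Markers of other cell types moved with the series. Of 9 macrophage markers, 8 were lower in J embryos and 0 higher, with Cx3cr1 not called, and their summed level was 6.23 to 17.4 CPM in H and 1.21 to 4.88 CPM in J embryos; Zmym2+/+ embryo 3 was the highest of the J embryos here too. Ptprc was low, with 1.02 to 2.64 CPM in H and 0.0604 to 0.618 CPM in J embryos. Csf1r was higher, with 2.81 to 10.5 CPM in H and 0.543 to 2.45 CPM in J embryos. Of 6 trophoblast markers, 3 were lower in J embryos, and they summed to 39.0 to 770 CPM in H and 21.3 to 66.7 CPM in J embryos. Of the other lists, 0 of 7 erythroid, 0 of 5 visceral endoderm, 1 of 6 endothelial, 0 of 7 motile cilia and 1 of 5 fibroblast genes were lower and 0 higher. In whole embryos, fewer cells of a type and less RNA per cell cannot be told apart, and the part of these cells, of the litter or of the RNA kit in the members' levels was not tested.

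Within the H series, 44 of 48 log2 fold changes between genotypes were positive with a median of 0.66, and 7 members were higher and 0 lower at an unadjusted p under 0.05, against 3.63% and 1.22% of all genes. Within the J series, 16 of 48 were positive, the median was -0.25, and 1 member was higher and 8 were lower at that level, against 5.93% and 7.53% of all genes. No member was called at an adjusted p under 0.05 within either series or with the series as a covariate, for which the median was 0.10. Few genes of any kind passed that threshold. Within H 1 of 20626 genes was higher and 0 lower, within J 46 and 1 of 22003, and with the covariate 113 and 2 of 22729. The median thus had opposite signs in the 2 series, a contrast that was not itself tested. With the covariate, 3 members were higher and 0 lower at an unadjusted p under 0.05, against 5.72% and 5.24% of all genes. Without Zmym2-/- embryos 5 and 6, 0 members were called, 1 was higher and 0 lower at that level, against 4.64% and 4.08% of all genes, and the median was -0.18. At the adjusted threshold 76 of 22570 genes were higher there and 1 lower.

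Sex and litter overlap with the series. The 3 Zmym2-/- males shared litter J7484, and in males alone 8 of 48 members (Isg15, Irf7, Ifi27, Ifi44, Ifit1, Psmb8, Rsad2 and Rtp4) were lower in Zmym2-/- embryos, against 1.17% of all genes, for example Isg15 at -3.93 (adjusted p = 0.0139, edgeR). In females alone, 41 of 48 were positive with a median of 0.61, and 0 were called, with 3 higher and 1 lower at an unadjusted p under 0.05, against 5.58% and 4.16% of all genes. At the adjusted threshold 11 of 21505 genes were higher in that fit and 4 lower. The sex by genotype interaction, added after the values were seen, called 0 members, and 0% of all genes in either direction. At an unadjusted p under 0.05, 0 members were higher and 25 lower, against 10.3% and 12% of all genes. All Zmym2-/- males came from litter J7484 of the J series, which had 0 Zmym2+/+ embryos. Of the Zmym2+/+ males, embryos 1 and 2 were of the H series and embryo 3 of the J series. Genotype and litter thus cannot be told apart in males, and genotype and series largely overlap there. Sex, litter and series overlap in the interaction as well.

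Littermates of both genotypes were compared in 3 litters with 7 embryos. In litter H2121, Isg15 was at 2.28 and 5.32 CPM in the Zmym2+/+ and 6.26 CPM in the Zmym2-/- embryo, and in litter H2408 at 4.29 and 7.61 CPM. In litter J7444 the order was opposite, with 1.71 CPM in the Zmym2+/+ and 0.136 CPM in the Zmym2-/- embryo. Ddx58 was higher in the Zmym2-/- embryo of each litter, at 9.34 against 6.99 and 6.15, 13.8 against 7.59 and 15.2 against 4.35 CPM. All Zmym2-/- embryos of these 3 litters were females. The Zmym2+/+ embryos of H2408 and J7444 were males, and those of H2121 were a male and a female. Sex and genotype thus largely overlap in this comparison and in the fit by litter. With litter as a block, 38 of 48 members were positive with a median of 0.14, and 0 were called, with 3 higher and 1 lower at an unadjusted p under 0.05, against 7.63% and 7.31% of all genes. At the adjusted threshold 1 of 21689 genes was higher and 0 lower, so this fit could hardly call a member.

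The level of L1MdT fusion genes, which were chosen on these embryos, divided by genotype. Their median level was 0.308 to 0.498 CPM in all 6 Zmym2-/- embryos and at most 0.0524 CPM in the Zmym2+/+ embryos, and 43 to 46 of the 46 lay above the highest Zmym2+/+ embryo in each Zmym2-/- embryo. Of the 46, 0 were called between H and J embryos. Side by side, Zmym2-/- embryos 1, 2, 3 and 6 had 5 to 18 members above the median of 12 embryos, and Zmym2-/- embryos 4 and 5, with a like level of L1MdT fusion genes, 44 and 41.

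**Figure D3:**
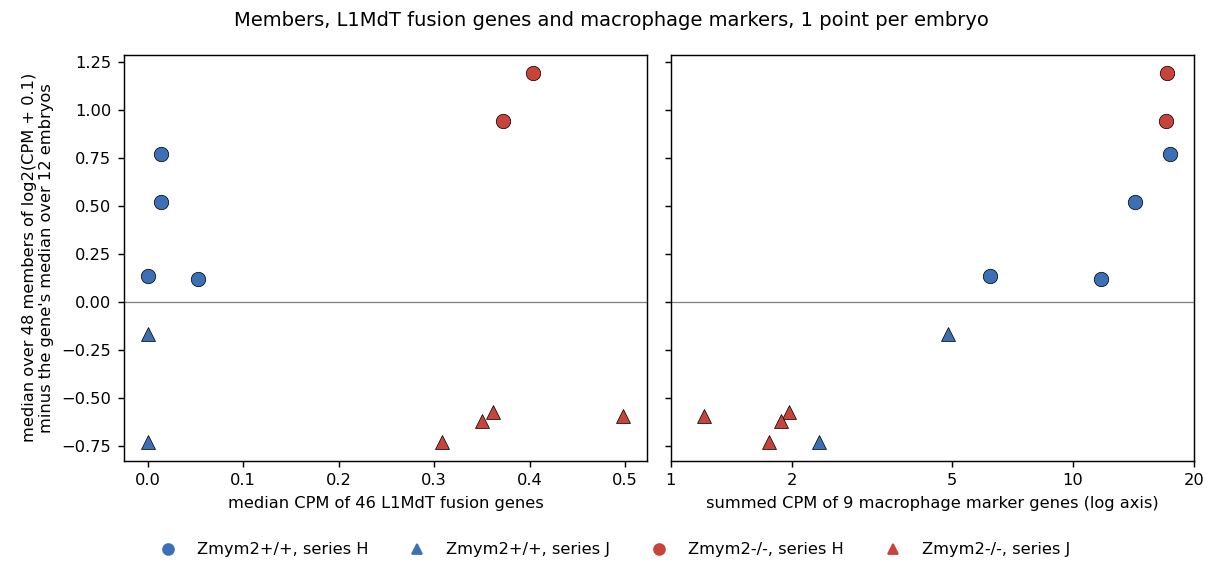
Median deviation of the 48 members (log2, from each gene's median over 12 embryos) against the median CPM of 46 L1MdT fusion genes (left) and the summed CPM of 9 macrophage markers (right, log axis), 1 point per embryo. The L1MdT fusion genes separate the genotypes, 0.308 CPM and above against 0.0524 CPM and below, while the members' deviation is above 0 in the 6 H embryos and below 0 in the 6 J embryos.

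Of 112 further genes of interferon signalling, sensing, nucleic acid clearance and MHC class I, 91 were tested in embryos and 0 were higher or lower in Zmym2-/- embryos. Of 21 interferon genes, 19, Ifnb1 among them, had no row in any count table and were not analysed here, and Ifne and Ifnk reached at most 0.222 CPM in embryos. The receptor gene Ifnar1 had a log2 fold change of 0.21 ± 0.17 (adjusted p = 0.651, edgeR). Between the name series, 30 of the 91 (33.0%) were lower in J than in H embryos and 0 higher, against 4.67% and 1.36% of all genes.

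In mESCs, members were called in both directions, those called lower at near the share of all genes. Of 38 members tested, 8 (21.1%) were higher in Zmym2-/- mESCs, against 10.3% of all genes, and 4 (10.5%) were lower, against 8.94% of all genes (edgeR). The median log2 fold change was 0.04, and 20 of 38 were positive. Among 10 sensors, adaptors and factors, 2 were higher and 3 lower (median -0.22), and among 28 effectors and genes of antigen presentation 6 were higher and 1 lower (median 0.21). The difference between these groups of genes was not tested. The count of lower members changed without control line 2 or without Zmym2-/- line 2, fits that leave a lone sample in 1 group.

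Ddx58 was the only called sensor that rose: it had 22.5 and 19.5 CPM in the control and 46.9 and 44.4 CPM in the Zmym2-/- lines, a log2 fold change of 1.12 ± 0.12 (adjusted p = 2.91e-05, edgeR). Its downstream adaptor fell: Mavs had 24.7 and 27.9 CPM in control and 19.3 and 18.5 CPM in Zmym2-/- lines (-0.47 ± 0.12, adjusted p = 0.0174, edgeR). Trim25 fell from 90.6 and 101 CPM to 63.7 and 62.0 CPM (-0.60 ± 0.09, adjusted p = 0.000467, edgeR). In the 3 genes the lines of 1 genotype did not overlap those of the other. With 2 lines per genotype this was common among the members in both directions, and its share over all genes was not computed. Tmem173 was low and fell further, from 1.54 and 1.98 to 0.524 and 0.587 CPM (-1.65 ± 0.36, adjusted p = 0.00597, edgeR), and of the sensors not called Zbp1 had 2.32 ± 0.80 and Dhx58, a regulator of RIG-I and MDA5, -0.76 ± 0.30. Mavs lost its call without control line 2 (adjusted p = 0.177).

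Irf1, a factor that also drives basal expression of immune genes, was the only transcription factor called. It had 23.7 and 21.8 CPM in control and 33.6 and 49.9 CPM in Zmym2-/- lines (0.87 ± 0.16, adjusted p = 0.00187, edgeR). Irf3, Irf9 and Stat2, which carry the signal from sensors and from the receptor, had 0.04 ± 0.10, -0.14 ± 0.17 and -0.30 ± 0.11 (adjusted p = 0.824, 0.624 and 0.0856, edgeR). Irf7 had no row.

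Oas1a and Oas2, which make the 2′-5′ oligoadenylate that activates RNase L, were the effectors on double-stranded RNA that rose. Oas1a, whose printed run ends at its start site, had 0.316 and 0.412 CPM in control and 4.34 and 3.68 CPM in Zmym2-/- lines (3.47 ± 0.33, adjusted p = 1.29e-05, edgeR). Its close relative Oas1g went from 0.0842 and 0.0824 to 2.97 and 3.12 CPM, and reads of these closely related genes may be split between them. Oas2 went from 0.863 and 0.330 to 1.48 and 2.20 CPM (1.58 ± 0.43, adjusted p = 0.0207, edgeR), which was lost without control line 2 or without Zmym2-/- line 2 (adjusted p = 0.141 and 0.0681). Adar was nearly level at 0.04 ± 0.09, and Oas3, Oasl1, Oasl2 and Eif2ak2 were not called.

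The abundant effectors Ifitm3 and Bst2 rose with small errors. Ifitm3 had 165 and 147 CPM in control and 317 and 286 CPM in Zmym2-/- lines, 1.93-fold (log2 0.95 ± 0.09, adjusted p = 9.95e-06, edgeR). Bst2 had 105 and 95.4 CPM in control and 167 and 194 CPM in Zmym2-/- lines (0.85 ± 0.09, adjusted p = 4.31e-05, edgeR). Parp9, an ADP-ribosyltransferase partner, rose less (0.48 ± 0.14, adjusted p = 0.0256, edgeR) and Samhd1 fell by 0.44 ± 0.10 (adjusted p = 0.0092, edgeR). Parp9 lost its call without control line 1, control line 2 or Zmym2-/- line 1 (adjusted p = 0.0656, 0.161 and 0.0878), and Samhd1 without control line 2 (adjusted p = 0.0986).

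Isg15 and Ifit3, often used as markers of an interferon response, were scarce and were not called. Isg15 had 0.126 and 0 CPM in control and 0.349 and 0.526 CPM in Zmym2-/- lines (adjusted p = 0.062, edgeR) and was called without control line 1, the library with the counts (adjusted p = 0.00786), with all 4 line groups in 1 fit (0.0308) and with filterByExpr (0.0494). Ifit3 lay the other way, with 0.105 and 0.110 CPM in control and 0 and 0.0309 CPM in Zmym2-/- lines (adjusted p = 0.238, edgeR). In antigen presentation Psmb8 rose from 0.863 and 0.384 to 1.43 and 3.00 CPM (1.78 ± 0.44, adjusted p = 0.0128, edgeR), lost without Zmym2-/- line 2 (adjusted p = 0.0874), while B2m, Tap1, which carries peptides into the endoplasmic reticulum, Psmb9 and Nlrc5 were not called.

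**Figure D4:**
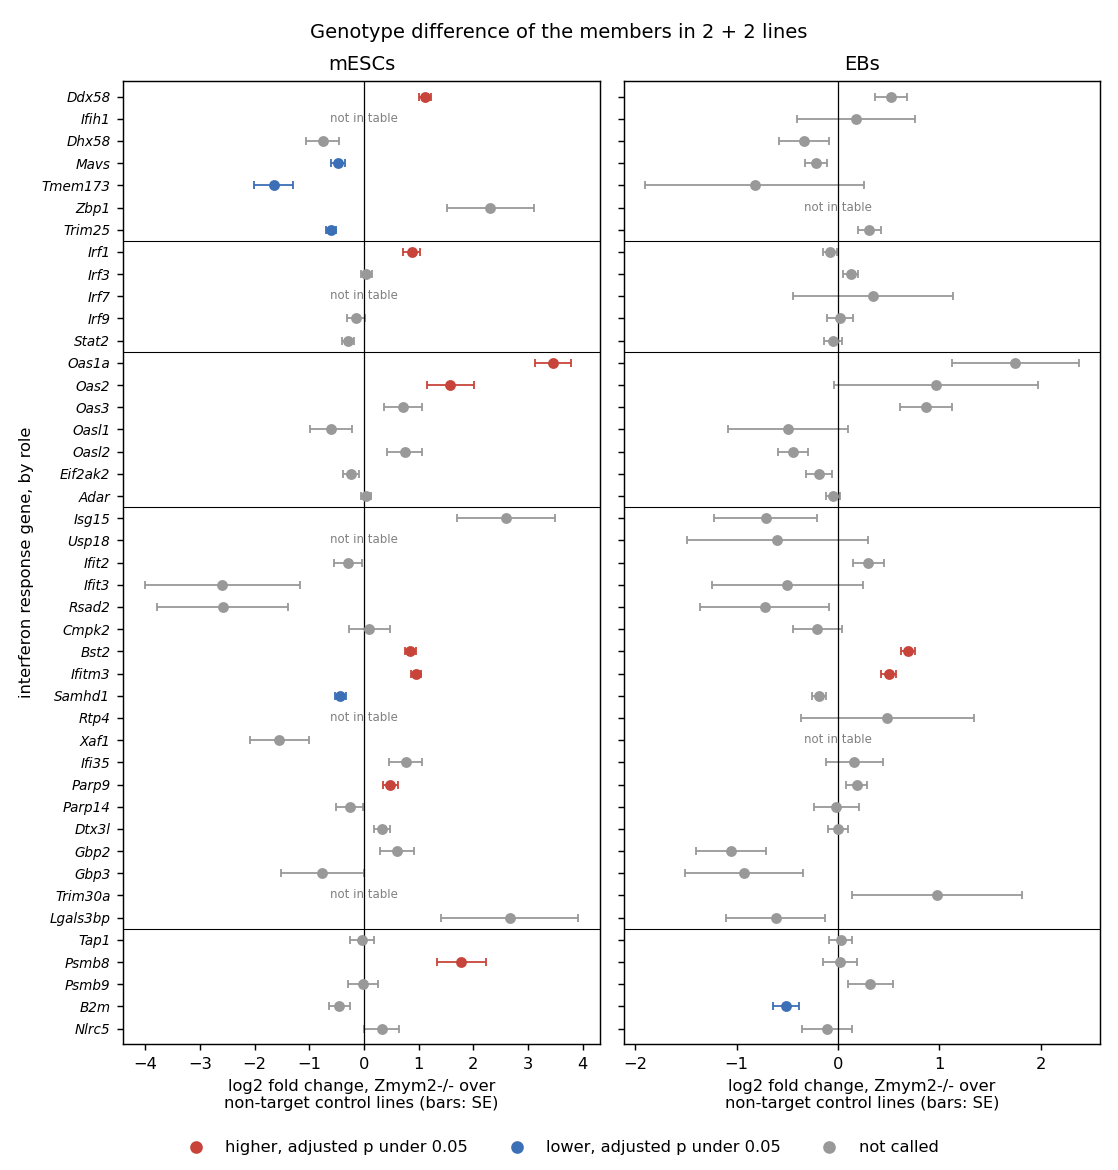
Log2 fold change of Zmym2-/- over control lines (points) with its SE (bars) for each member with a row in mESCs (left) or EBs (right), ordered by role; red was called higher, blue lower and grey not called. In mESCs 8 were higher and 4 lower, and in EBs 2 were higher and 1 lower.

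Of the wider list, 72 genes were tested in mESCs, of which 18 (25.0%) were higher and 14 (19.4%) lower, against 10.3% and 8.94% of all genes. Of 33 other interferon-stimulated genes, 13 (39.4%) were higher and 4 (12.1%) lower, those higher including Oas1g (5.14 ± 0.43), Slfn9 (3.26 ± 0.34) and Ifitm1 (1.42 ± 0.11). Of 13 other sensing genes, 1 was higher (Aim2, a DNA sensor of inflammasomes, 0.91 ± 0.12) and 5 were lower, among them Mb21d1, which encodes cGAS (-0.81 ± 0.25), and the adaptor Myd88 (-0.80 ± 0.15). Of the receptors and their kinases, Ifnar1 (0.38 ± 0.11) and Ifnlr1 (1.02 ± 0.29) were higher, and Jak1 (-0.76 ± 0.10) and Socs3, a feedback inhibitor of cytokine signalling (-0.93 ± 0.08), were lower.

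Markers of the state of the cells moved as well. In Zmym2-/- mESCs 3 of 6 genes of early differentiation were higher, with Fgf5 at 4.03, Otx2 at 2.42 and Dnmt3b at 1.70 on the log2 scale. The other 3, T, Mixl1 and Eomes, were negative, down to -1.43, without a call, so the list did not move as a whole. Of 5 pluripotency genes, 2, Esrrb and Nanog, were lower (-0.91 and -0.45). Of 4 endothelial markers tested, 3 were higher, Tie1 (3.88), Pecam1 (0.89) and Tek (0.51). Other lists had 2 of 8 E8.5 embryo, 1 of 7 motile cilia, 1 of 3 trophoblast and 1 of 3 fibroblast genes higher. Lower in these lists were 1 E8.5 embryo gene and 2 motile cilia genes. Over all genes of the mESCs, 10.3% were higher and 8.94% lower. Of 9 macrophage markers, 2 had a row, Ptprc at a mean of at most 0.0882 CPM and Spi1 at a mean of at most 0.667 CPM, and 0 were called. The part of this shift of cell state in the members' differences was not tested.

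In EBs 3 members changed. Of 41 tested, 2 (4.88%) were higher, against 4.62% of all genes, and 1 (2.44%) was lower, against 2.77% of all genes, which was near the background. The median was -0.02 with 20 of 41 positive, and 0 of 11 sensors, adaptors and factors were called. Bst2 had 110 and 99.5 CPM in control and 161 and 178 CPM in Zmym2-/- lines (0.69 ± 0.07, adjusted p = 6.52e-05, edgeR). Ifitm3 had 40.1 and 36.8 CPM in control and 55.4 and 53.3 CPM in Zmym2-/- lines (0.50 ± 0.08, adjusted p = 0.00163, edgeR). Lines of the 2 genotypes did not overlap in either gene. Such separation was common among the members in both directions, and its share over all genes was not computed. Both genes had also been higher in mESCs.

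B2m fell in EBs, from 14.2 and 15.4 CPM to 11.3 and 9.26 CPM (-0.52 ± 0.13, adjusted p = 0.0277, edgeR), and lost its call without control line 2 or Zmym2-/- line 2 (adjusted p = 0.103 and 0.0684). It lay lower in mESCs too, without a call. Other class I genes of the wider list fell beside it in EBs, 4 lower and 0 higher of 7: H2-K1 (-0.55 ± 0.06) and H2-D1 (-0.55 ± 0.08), the heavy chains, Tapbp (-0.51 ± 0.08), the peptide loader tapasin, and Psmb10 (-0.42 ± 0.06). Other interferon-stimulated genes were split, 5 higher and 4 lower of 33 (15.2% and 12.1%). Over all genes of the EBs, 4.62% were higher and 2.77% lower. Aim2 rose by 1.78 ± 0.14 on the log2 scale.

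Ddx58 in EBs had 6.10 and 5.50 CPM in control and 7.48 and 9.26 CPM in Zmym2-/- lines (0.52 ± 0.16, adjusted p = 0.0692, edgeR) and was called without Zmym2-/- line 1 (adjusted p = 0.0298) and with all 4 line groups in 1 fit (adjusted p = 0.0494). Leaving out 1 line, which leaves a lone sample in 1 group, changed the calls. Trim25 then had a log2 fold change of 0.55 without control line 2 and 0.37 without Zmym2-/- line 2. Oas3 had 1.08 without control line 1 and 1.07 without Zmym2-/- line 1. Gbp2, an interferon-inducible GTPase, had -1.79 without Zmym2-/- line 1. Oasl2 had -0.61 without Zmym2-/- line 2 and Samhd1 -0.27 without control line 1. Oas1a reached only 0.609 and 0.346 CPM in Zmym2-/- EBs, against 0.0910 and 0.191 CPM in control (1.75 ± 0.63, adjusted p = 0.127, edgeR). Isg15 had 0.607 and 0.408 CPM in control and 0.275 and 0.346 CPM in Zmym2-/- EBs (-0.71 ± 0.51, adjusted p = 0.483, edgeR). Of 6 early differentiation genes, 0 were higher in Zmym2-/- EBs and Otx2 was lower (-0.29). Of the pluripotency genes, Zfp42 was higher (0.67). Of 5 endothelial markers tested, 2 were higher, Tie1 (3.62) and Pecam1 (1.41), and all 5 were positive. Of 5 visceral endoderm markers, 1 was lower, Ttr (-3.30), all 5 were negative and their median was -2.07. Of 7 motile cilia genes, 2 were higher, but 3 were positive and 4 negative, with a median of -0.25. The part of these cell types in the members' values was not tested.

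**Figure D5:**
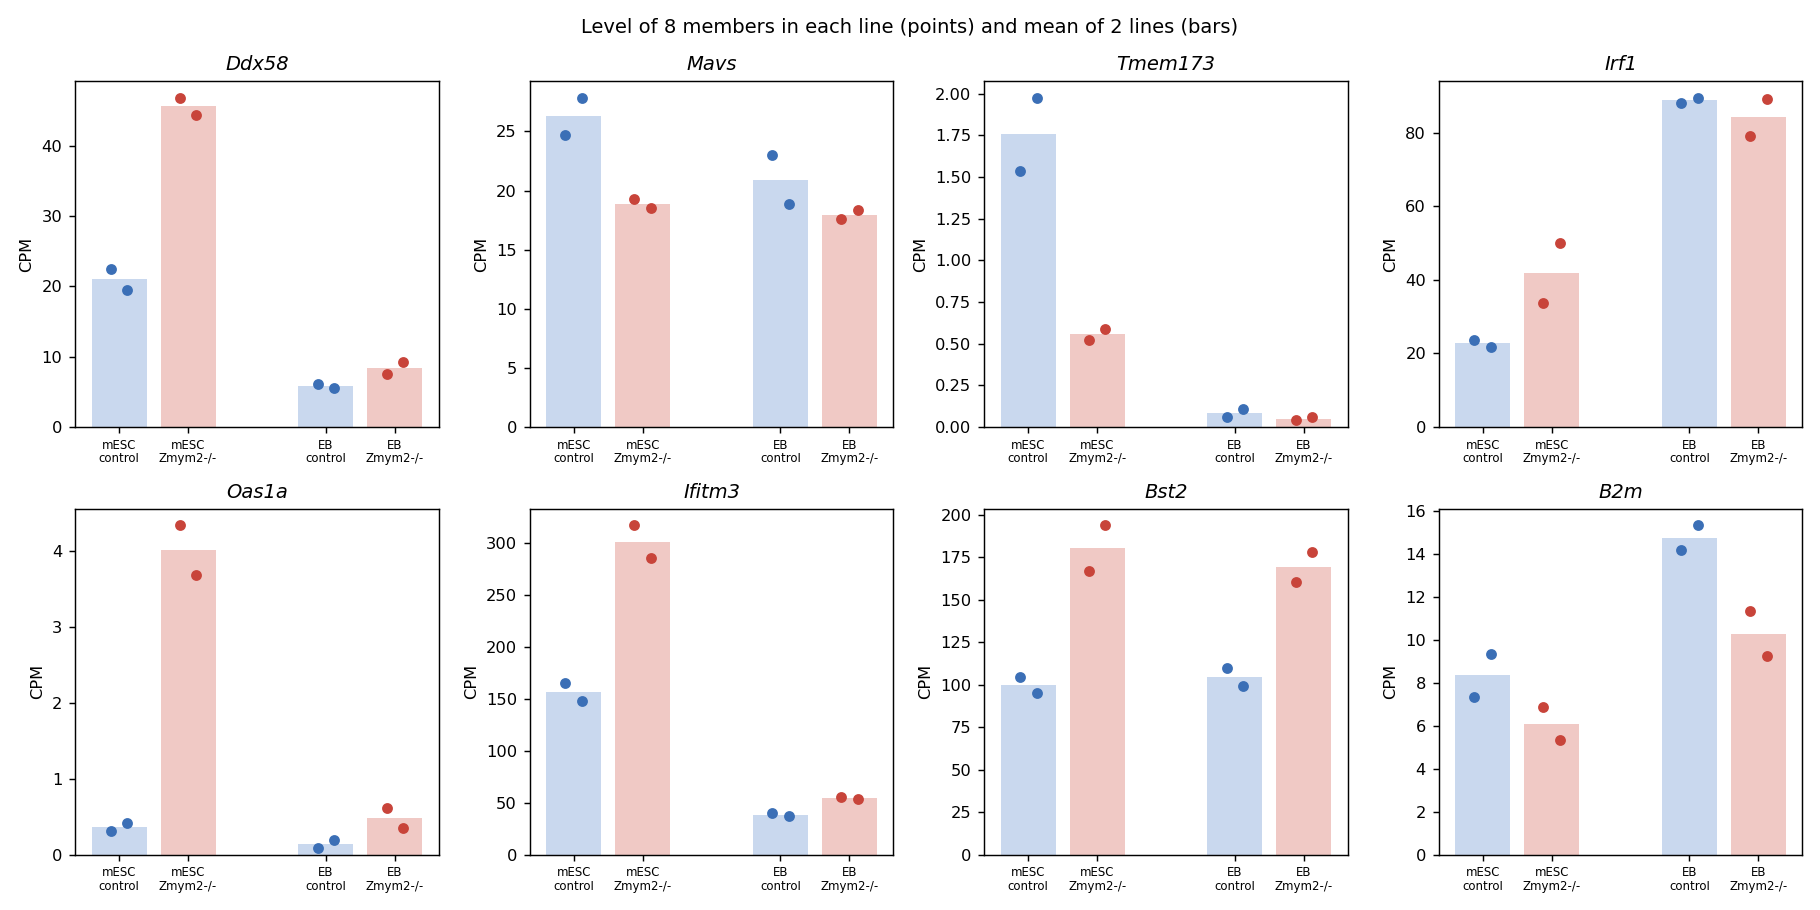
CPM of 8 members in each of the 2 lines per genotype (points) and their mean (bars), as mESCs and as EBs. Ddx58 and Oas1a were called higher in Zmym2-/- mESCs, Ddx58 in EBs under some alternatives only, Ifitm3 and Bst2 were higher at both stages, and B2m was lower in Zmym2-/- EBs.

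Whether the genotype difference itself changed from mESCs to EBs was tested in 36 members. Trim25 had a more positive difference in EBs (0.91, 1 of 36 or 2.78%, against 3.07% of all genes), and Irf1 (-0.95) and Ifitm3 (-0.45) a less positive one (2 of 36 or 5.56%, against 2.18% of all genes; edgeR). Trim25 fell in mESCs and had 34.9 and 47.3 CPM in control and 53.1 and 48.9 CPM in Zmym2-/- EBs. Irf1 rose in mESCs and was at 88.2 and 89.5 against 79.2 and 89.3 CPM in EBs, where the level in controls was well above that of mESCs. With the clonal line as a block, 1 member was higher and 7 were lower, against 6.86% and 5.42% of all genes, Ddx58, Psmb8, Isg15, Oasl2 and Gbp2 joining Irf1 and Ifitm3, with Ddx58 at -0.61 (adjusted p = 0.0115). Without the block, Irf1 lost its call without control mESC line 2, control EB line 1, control EB line 2 or Zmym2-/- EB line 1 (adjusted p = 0.0657 to 0.0817), and Ifitm3 without 6 of the 8 libraries, these 4, Zmym2-/- mESC line 1 and Zmym2-/- EB line 2 among them (adjusted p = 0.0712 to 0.181). The number of members called lower also changed with the library left out, each such fit leaving a lone sample in 1 group. Trim25 kept its call in each of 12 alternatives.

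Ifitm3 and Bst2 were the members called higher at both stages of the lines. In embryos their log2 fold changes were 0.16 ± 0.27 and 0.48 ± 0.40. Ddx58 was positive in all 3, with 0.60 ± 0.30 in embryos, 1.12 ± 0.12 in mESCs and 0.52 ± 0.16 in EBs, and passed in mESCs.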

How the data were processed

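RNA was sequenced from 12 E8.5 embryos, 4 mESC and 4 EB libraries. For embryos the paper describes isolation of total RNA and a stranded mRNA library preparation. The authors trimmed reads (Trimmomatic 0.34), aligned them to mm10 (STAR 2.7.8a), marked duplicates (Picard 2.9.0) and deposited raw gene counts (HTSeq), 1 table each for embryos, mESCs and EBs. The annotation and strand setting of the counting were not given in the sources used here. The authors also deposited RPKM values (StringTie 1.3.5), used for levels between genes, and normalized counts rounded to whole numbers, treated as a score and not used for tests.

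Counts were tested with edgeR 4.0.16 in R 4.3.3 (TMM, quasi-likelihood, Benjamini-Hochberg adjustment over all genes of a table, called at an adjusted p under 0.05), within embryos, mESCs and EBs, and as a stage by genotype interaction over the lines. Genes needed 10 counts in total, which removed none, the fewest totals being 13, 10 and 10. The SE is the absolute log2 fold change divided by the square root of its F statistic. The 48 members and all lists were chosen with earlier results of these data known. Named genes were those called in any comparison, the 4 of each role with the smallest p in each comparison and 16 sensors, factors and effectors whatever their values. Rsad2, Rtp4, Ifi27, Ifi44, Xaf1, Zbp1 and others that the name series or the males single out were named after their values were seen where outside this rule. The name series (H or J) and the sex by genotype interaction were tested after the values were seen. DESeq2 1.42.0, limma 3.58.1 on log2(RPKM + 0.1), RLE factors, filterByExpr, subsets, covariates, blocks and leaving out each library were alternatives. The edgeR step was tested on simulated data. Deviations from group means were correlated between samples of the same number: -0.469 to 0.389 in embryos, -0.0496 in mESCs and -0.0588 in EBs, so that these were not paired. Between a mESC and an EB library of the same genotype and number r was 0.137 (non-target) and 0.373 (Zmym2-/-). These were taken as the same clonal line, from the design of the study and their numbers. Intervals and errors cover the spread between libraries. Reads of near-identical genes, such as Oas1a and Oas1g, Ifit3 and Ifit3b or the Ifitm family, may have been split by the counting. Tmem173 and Mb21d1 were matched by gene identifier in the line tables. A gene of the pathway list is not reported here.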

Additional observations from a re-analysis of the deposited data

Results flagged for a closer look

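In 5 of 68 groups of 6 embryos, 1 embryo stood apart from the others of its genotype (Dixon's criterion for 6 samples), and chance gives about 1 in 20 groups. In Zmym2-/- embryos it was embryo 4 for Oas2 (0.88 CPM, the others 0 to 0.297), Mx1 (0.318 CPM, the others 0 to 0.0906) and Nlrc5, the activator of MHC class I genes (0.904 CPM, the others 0.127 to 0.347). In Zmym2+/+ embryos it was embryo 2 for Bst2 (34.5 CPM, the others 8.79 to 18.1) and embryo 4 for Parp9 (7.54 CPM, the others 4.14 to 4.74). All 3 embryos belong to the H name series.

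The genotype difference changed between stages, by the interaction term, for Trim25 (0.913, EBs minus mESCs, log2), Irf1 (-0.952) and Ifitm3 (-0.448).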

How the results depend on the processing

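In embryos, 0 members were called under each alternative tried, leaving out each of 12 embryos among them, except in males alone. There 8 were lower, against 1.17% of all genes, and Psmb8 turned from 0.14 to -3.48, but genotype and litter cannot be told apart in males. Several of these fits called few genes at all, so 0 members has little weight there. Within the H series 1 of 20626 genes was higher and 0 lower, and with litter as a block 1 of 21689 and 0. In mESCs, limma on RPKM gave 4 of 42 members higher and 1 lower, against 788 and 486 of 23904 genes, and leaving out 1 line changed the counts. In EBs, limma on RPKM gave 0 higher and 0 lower, against 88 and 9 of 23794 genes. All 4 line groups in 1 fit gave 3 higher, Ddx58 among them, and 0 lower, against 664 and 291 of 18926 genes. Leaving out 1 line changed the counts there too. For the interaction, DESeq2 gave 5 lower, against 616 of 18926 genes, and the count of lower members changed with the library left out. With the replicate number as a block, which the data gave no ground to use within a stage, embryos had 0 higher and 0 lower, against 49 and 0 of 22729 genes. In mESCs 9 (Isg15 with an adjusted p of 0.042, edgeR, among them) and 5 were called, against 2064 and 1866 of 20159 genes. EBs had 5 and 2, against 1232 and 841 of 20142 genes. With the clonal line as a block the interaction had 1 higher and 7 lower, against 6.86% and 5.42% of all genes. Ifitm3, Ddx58, Bst2, Oas1a and Trim25 in mESCs kept their calls in all 11 alternatives, while Irf1 and Tmem173 lost theirs under limma on RPKM (adjusted p = 0.106 and 0.0702), as did Bst2 and Ifitm3 in EBs (adjusted p = 0.058 and 0.054). Samhd1, Psmb8, Mavs, Parp9 and Oas2 in mESCs and B2m in EBs lost theirs under limma on RPKM as well as under other alternatives. The cause was not tested. Leaving out 1 of 2 lines leaves a lone sample that is assumed to vary like the others. Of the values of named members under the alternatives, 877 of 881 in embryos, 299 of 324 in mESCs, 322 of 341 in EBs and 335 of 359 of the interaction stayed on their side of the threshold, while the sign changed in 121, 8, 14 and 15, of which Psmb8 in males was the one with a call. Leaving out the count filter gave the main values, since the tables held no gene under it. Low counts limit Isg15, Ifit3 and Tmem173 in the lines, where 1 CPM is at least 32.0 counts.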
